A study of Mus musculus with 4 samples.

Results

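The matrix metalloproteinases (MMPs) Mmp2, Mmp3, Mmp10, Mmp13, Mmp14 and Mmp19 and their inhibitors Timp1, Timp2 and Timp3 were followed across 4 single-cell RNA-seq libraries of mouse mesenchymal progenitor cells (MPC). These 9 of the 32285 genes in the matrices were chosen by name, from a protease family and the inhibitors that bind it. The choice was made with earlier results of these data known, so counts of members called below are those of a picked set. They were read in cell barcodes with at least 5000 UMIs (unique molecular identifiers, each standing for 1 captured RNA molecule), at least 1500 genes and at most 20% of UMIs from mitochondrial (mt-) genes, which kept 22049 of 39891 barcodes. Of the 9, 8 were found in at least 1 kept cell and had a mean of at least 1 CPM (UMIs scaled to 1e6 UMIs of the library's kept cells) over the 4 libraries. Mmp10 had 0 UMIs in every library.

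The cells were C3H 10T1/2, a clonal mouse embryo line with progenitor properties, carrying by lentivirus a tagged histone H3.1 transgene that was either wild type (H3WT) or had arginine 26 changed to cysteine (H3R26C). Endogenous histone H3 was present in both lines, and the counts cannot tell transgene from endogenous RNA. Each line was treated with DMSO, the vehicle, or with 5-azacytidine (5-Aza), a cytidine analogue that blocks DNA methyltransferases and lets part of such a culture turn into muscle-like cells. Treated cells received 3 µM 5-Aza over 24 h, with collection at day 28; the day for the DMSO cells was not given in the sources used here. Each of the 4 conditions was 1 library, so no difference below has a replicate check. Every interval is a 95% interval and covers counting error only. It is exact Poisson for levels, exact binomial for shares of cells and, for plain fold ratios, exact binomial on the split of UMIs between the libraries. For log2 ratios it is a normal approximation from Poisson counts. Intervals on UMIs treat them as independent and so are too narrow where a few cells hold most of them, as for Mmp3 and Mmp13.

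MMPs are zinc-dependent enzymes made as inactive precursors that cut collagens and other matrix proteins once the propeptide is removed. Most are secreted, whereas MMP14 sits in the cell membrane, where it binds TIMP2 and through it captures and activates the MMP2 precursor. TIMPs bind active MMPs and block them, and TIMP3 is held in the matrix. In fibroblast-like cells Mmp2, Mmp14 and Timp2 are known as constitutively expressed genes, and Mmp3, Mmp13 and Timp1 as genes induced by cytokines, growth factors and AP-1.

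Mmp3, Mmp10 and Mmp13 are neighbours on chromosome 9 (GRCm38, GENCODE annotation), within 237727 bases that hold 5 protein-coding MMP genes in the order Mmp13, Mmp12, Mmp1b, Mmp3 and Mmp10. Mmp13 spans chr9:7272514-7283331, Mmp3 chr9:7445822-7455975 and Mmp10 chr9:7502352-7510240, all on the plus strand. The other members are scattered, with Mmp2 at chr8:92827291-92853420, Mmp14 at chr14:54431612-54445364, Mmp19 at chr10:128790910-128800824, Timp1 at chrX:20870166-20874735, Timp3 at chr10:86300372-86349506 and, on the minus strand, Timp2 at chr11:118301069-118355740. The span of Cep295nl overlaps that of Timp2 on the same strand over 10141 bases. Exons were not compared, so whether this touches any counted read was not examined. Timp1 lies within Syn1 and Timp3 within Syn3, both on the opposite strand, and Mmp19 overlaps Gm47093 and Tmem198b on the opposite strand.

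RefSeq promoters (GRCm38.p6, 250 bases before the start) were held for 7 of the 9 members; Mmp2 and Mmp19 had none in the table used. The 3 neighbours on chromosome 9 share letters that the other 4 promoters did not hold: the AP-1 motif TGAGTCA (either strand) and a TATAAA on the gene's strand were both in Mmp3, Mmp10 and Mmp13, and neither was in Mmp14, Timp1, Timp2 or Timp3. Among all 32851 promoters of that length 4.46% held this AP-1 motif and 7.59% held TATAAA. Mmp13 also held the Runx motif AACCACA (either strand, 4.40% of promoters). The AP-1 letters began 46 bases before the start in Mmp3, 63 in Mmp10 and 35 in Mmp13, where they read as the reverse complement. The Ets motif AGGAAG (either strand) was in 29.5% of promoters, among them those of Mmp3, Mmp13, Mmp14, Timp1 and Timp3. The 130 bases before the RefSeq start of the 3 neighbours are shown to set them side by side, with Timp1, whose level had the same order over the libraries as that of Mmp3, as a promoter without them; capitals mark the AP-1, Runx and TATAAA matches.
Mmp3 (chr9:7445692-7445821, + strand): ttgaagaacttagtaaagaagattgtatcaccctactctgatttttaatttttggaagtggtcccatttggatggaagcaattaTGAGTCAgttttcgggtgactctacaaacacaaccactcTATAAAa
Mmp10 (chr9:7502212-7502341, + strand): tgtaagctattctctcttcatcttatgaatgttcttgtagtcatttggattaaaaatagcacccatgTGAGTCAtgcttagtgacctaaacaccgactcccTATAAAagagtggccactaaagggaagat
Mmp13 (chr9:7272384-7272513, + strand): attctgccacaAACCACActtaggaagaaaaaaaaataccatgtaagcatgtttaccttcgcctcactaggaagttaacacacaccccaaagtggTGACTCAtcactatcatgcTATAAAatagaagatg
Timp1 (chrX:20870036-20870165, + strand): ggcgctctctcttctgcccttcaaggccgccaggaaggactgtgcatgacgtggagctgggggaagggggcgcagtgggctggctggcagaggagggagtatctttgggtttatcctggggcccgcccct
A match gives the letters in this window only and says nothing about binding.

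The kept cells numbered 3710 (H3WT DMSO), 4727 (H3R26C DMSO), 5993 (H3WT 5-Aza) and 7619 (H3R26C 5-Aza), with 84060490 to 110712425 UMIs a library and a median of 13123 to 22420 UMIs a cell. DMSO cells were deeper than 5-Aza cells, so shares of cells are given after drawing each cell down to 5000 UMIs. Pairs of libraries shared 24 to 58 kept barcodes, and no doublets were removed. The label was checked against the mesenchymal markers Pdgfra, Ly6a, Thy1, Col1a1, Col1a2 and Vim, and all 6 were found in every library and summed to between 10422 and 11944 CPM. Blood and macrophage markers, listed because such cells also express MMPs, summed to 5.07 to 14.2 CPM over 5 genes, with Ptprc at 0 in both DMSO libraries and Adgre1 at 0 in all but H3R26C DMSO; endothelial markers summed to 4.69 to 10.6 CPM. Muscle markers summed to 30.2 and 24.7 CPM in the H3WT and H3R26C DMSO libraries and to 2088 and 2535 CPM after 5-Aza, and mitosis markers to 233, 483, 412 and 832 CPM in H3WT DMSO, H3R26C DMSO, H3WT 5-Aza and H3R26C 5-Aza.

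Among the secreted proteases, Mmp3 (stromelysin-1, which cuts proteoglycans and activates other MMPs) was scarce without 5-Aza and rose with it in both lines. Its level was 0.702 CPM in H3WT DMSO (61 UMIs, interval 0.537 to 0.902), 1.89 in H3R26C DMSO (159 UMIs, 1.61 to 2.21), 7.59 in H3WT 5-Aza (640 UMIs, 7.01 to 8.20) and 17.4 in H3R26C 5-Aza (1930 UMIs, 16.7 to 18.2). By level, both 5-Aza libraries stood above both DMSO libraries, and H3R26C stood above H3WT under either treatment. Few cells carried it, with a UMI in 0.270% of H3WT DMSO, 0.338% of H3R26C DMSO, 0.868% of H3WT 5-Aza and 2.14% of H3R26C 5-Aza cells. With DMSO the share intervals of the lines overlapped (0.129 to 0.495% and 0.194 to 0.549%). Unthinned shares ran the other way, at 0.647% in H3WT DMSO and 0.571% in H3R26C DMSO. A single cell held 29.5% of the Mmp3 UMIs in H3WT DMSO and 18.2% in H3R26C DMSO. As a reference for RNA free in the droplets, cells with UMIs of at least 8 of 12 muscle markers (muscle-gated cells, median 13630 and 17953 UMIs) had an Mmp3 UMI in 0 of 131 cells of H3WT 5-Aza, for which a floor of 3 counts allows a share of up to 2.29% (exact binomial limit 2.78%), and in 1 of 187 cells of H3R26C 5-Aza, a share of 0.535% (0.0135 to 2.94%). No cell type known to lack the gene was measured, so the share that free RNA gives was not settled at this number of cells.

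Mmp13 (collagenase-3, which cuts fibrillar collagen) was split by treatment in the same way at lower counts. H3WT DMSO held 13 UMIs (0.150 CPM), H3R26C DMSO 1 UMI (0.0119 CPM), H3WT 5-Aza 108 UMIs (1.28 CPM) and H3R26C 5-Aza 285 UMIs (2.57 CPM). The 2 DMSO libraries were thus near the floor of 3 counts, and the mean of 1.004 CPM over the libraries lay just inside the expression minimum. A UMI was found in 46 of 7619 thinned H3R26C 5-Aza cells, 17 of 5993 H3WT 5-Aza cells, 1 of 3710 H3WT DMSO cells and 0 of 4727 H3R26C DMSO cells, for which the floor of 3 counts allows a share of up to 0.0635% (exact binomial limit 0.0780%). Mmp10 (stromelysin-2), which lies beside Mmp3 and holds the same letters in its promoter, had 0 UMIs in all 4 libraries; a count of 0 allows 0.0271 to 0.0357 CPM.

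Mmp2 (gelatinase A, which degrades basement membrane collagen and gelatin) was found in most cells and differed by line. Its level was 874 CPM in H3WT DMSO (868 to 880.1), 614 in H3R26C DMSO (609 to 619), 984 in H3WT 5-Aza (978 to 991) and 446 in H3R26C 5-Aza (442 to 450.1). Both H3R26C libraries stood below both H3WT libraries, and the lowest was H3R26C 5-Aza. The share of thinned cells with a UMI was 94.9%, 88.3%, 92.7% and 76.7% in the same order, and the median cell held 788, 556, 832 and 382 CPM. In the barcodes that the cell filter left out, Mmp2 was 426, 364, 409.9 and 362 CPM, a narrower range. Mmp19 (a secreted protease of the basement membrane) moved least among the proteases, at 25.7 CPM in H3WT DMSO, 29.4 in H3R26C DMSO, 21.6 in H3WT 5-Aza and 17.7 in H3R26C 5-Aza. Both 5-Aza libraries lay below both DMSO libraries for Mmp19.

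The membrane protease Mmp14 (MT1-MMP) was close to even in 3 libraries and low in the last. It stood at 720.4 CPM in H3WT DMSO (715 to 726), 629 in H3R26C DMSO (623 to 634), 677 in H3WT 5-Aza (671 to 683) and 339 in H3R26C 5-Aza (335 to 342), with UMIs in 94.5%, 91.7%, 91.5% and 75.2% of thinned cells. Timp2, the inhibitor that joins MMP14 to the MMP2 precursor, had the same shape. It stood at 3272 CPM in H3WT DMSO, 3146 in H3R26C DMSO, 2959 in H3WT 5-Aza and 1661 in H3R26C 5-Aza, although at least 99.2% of thinned cells held a UMI in every library. All 3 genes of this activation complex (Mmp2, Mmp14 and Timp2) were found together in 90.2% of thinned H3WT DMSO cells (89.2 to 91.1%), 82.3% of H3R26C DMSO (81.1 to 83.3%), 86.7% of H3WT 5-Aza (85.8 to 87.5%) and 60.9% of H3R26C 5-Aza cells (59.8 to 62.0%). A joint share falls with the single ones, which in H3R26C 5-Aza were 76.7% for Mmp2 and 75.2% for Mmp14. Whether the genes were found together beyond their single shares was not tested.

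Of the inhibitors, Timp1, a broad and inducible one, ran opposite to Timp2. It stood at 95 CPM in H3WT DMSO (93 to 97.1), 113 in H3R26C DMSO (111 to 116), 149 in H3WT 5-Aza (147 to 152) and 329 in H3R26C 5-Aza (325 to 332). The share of thinned cells with a UMI was 30.8%, 33.8%, 36.2% and 64.2%, so H3R26C 5-Aza stood apart from the other 3, which lay within a few points of each other. Timp3, the matrix-bound inhibitor, was highest in H3WT 5-Aza at 1971 CPM, followed by H3WT DMSO at 1529, H3R26C 5-Aza at 1458 and H3R26C DMSO at 1294. Of all UMIs of the 3 inhibitors, Timp1 made up 1.94% in H3WT DMSO, 2.49% in H3R26C DMSO, 2.94% in H3WT 5-Aza and 9.53% in H3R26C 5-Aza, while Timp2 made up 66.8%, 69.1%, 58.3% and 48.2%. These are shares of UMIs with no correction for transcript length. For each of the 8 detected members, the counting intervals of neighbouring libraries in its order of levels did not overlap. The spread between replicate libraries is unknown, and these intervals treat UMIs as independent. With DMSO, Mmp13 had 13 UMIs in 3 unthinned H3WT cells and 1 UMI in 1 H3R26C cell. Mmp3 was in 24 unthinned H3WT and 27 H3R26C cells, so the order of the DMSO libraries rests on few cells for both genes.

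**Figure D1:**
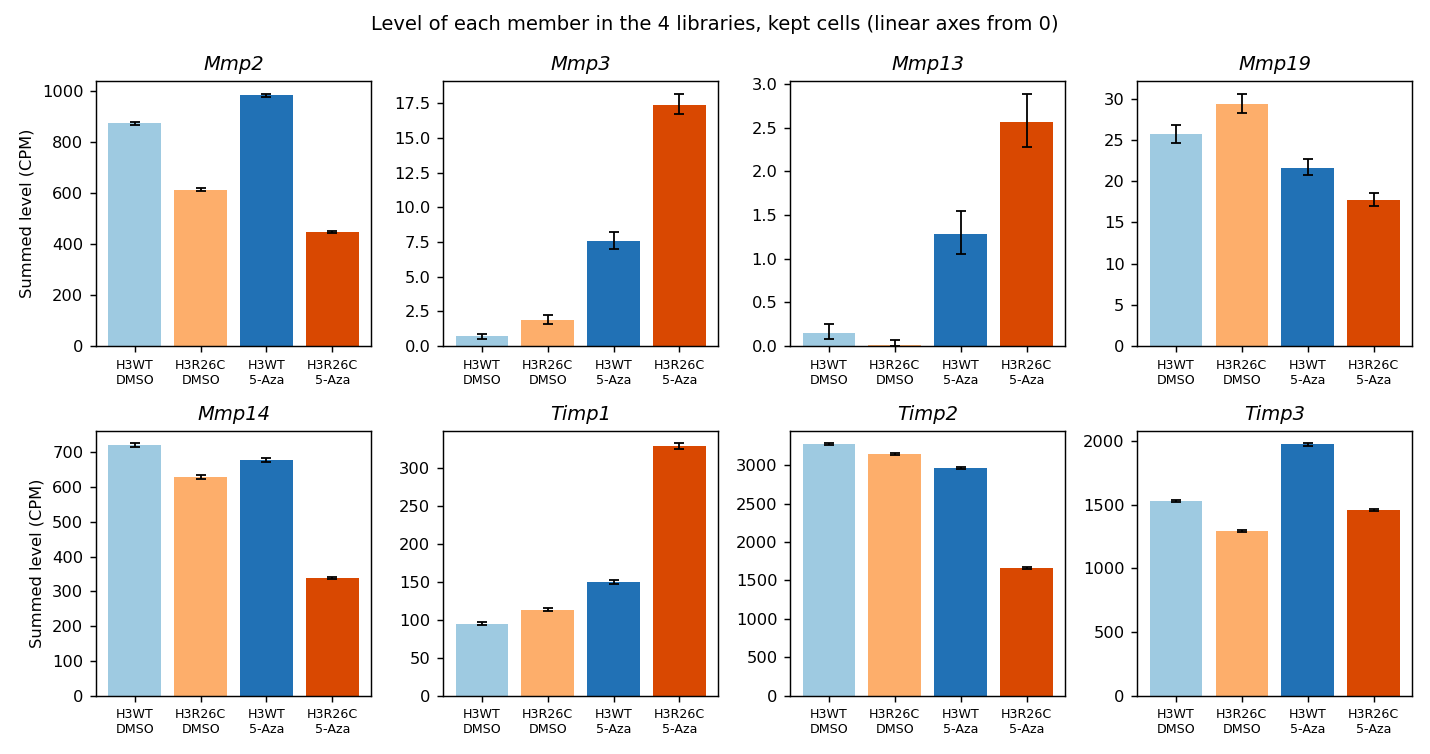
Summed level of each detected member (CPM, linear axes from 0) in the 4 libraries; bars are 1 library each and error bars are 95% exact Poisson intervals. Mmp3, Mmp13 and Timp1 were highest in H3R26C 5-Aza (17.4, 2.57 and 329 CPM), where Mmp2, Mmp14, Mmp19 and Timp2 were lowest (446, 339, 17.7 and 1661 CPM).

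The first comparison asked what 5-Aza changed in each line. Ratios are log2 of CPM + 1, which understates the change of scarce genes, and a gene is called when they differ by at least 2-fold. In H3WT, 1 of 8 members was called higher and 0 lower, where 4.38% and 0.272% of the 12482 genes tested were. Mmp3 was the called member, at 2.33 on the log2 scale (2.16 to 2.51), or 10.8-fold in plain CPM (8.30 to 14.3). Mmp13 lay just outside at 0.99, with 8.56-fold in plain CPM (4.80 to 16.6), and it passed 2-fold without the gated cells (1.04). Timp1 (0.65), Timp3 (0.37) and Mmp2 (0.17) were higher and Mmp14 (-0.09), Timp2 (-0.14) and Mmp19 (-0.24) lower, all short of 2-fold. The member median was 0.27, against 0.04 over all genes.

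In H3R26C, 3 of 8 members were called higher and 0 lower, where 7.27% and 3.12% of all genes were. Mmp3 was at 2.67 (2.51 to 2.83), a 9.22-fold ratio of CPM (7.84 to 10.9). Timp1 was at 1.53 (1.49 to 1.56), or 2.90-fold. Mmp13 was at 1.82, and its plain ratio of 216-fold had an interval of 38.5 to 8577, since the DMSO library held 1 UMI; with a pseudocount of 5 CPM it was 0.60 and no longer called. On the other side, Timp2 (-0.92), Mmp14 (-0.89), Mmp19 (-0.70) and Mmp2 (-0.46) were lower, all short of 2-fold, and Timp3 was at 0.17. The member median was -0.14 against -0.04 over all genes.

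The next comparison set H3R26C against H3WT. With DMSO, 0 of 8 members were called in either direction, where 1.82% of all genes were higher and 0.577% lower. Mmp3 was at 0.76 (0.56 to 0.97), although its ratio in plain CPM was 2.69-fold (1.99 to 3.68). Mmp2 was at -0.51 (-0.52 to -0.49). With a pseudocount of 0.1 CPM, Mmp3 (1.31) and Mmp13 (-1.16) passed 2-fold. The other members lay between -0.24 (Timp3) and 0.25 (Timp1).

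With 5-Aza, 2 members were called higher and 1 lower, where 4.21% and 2.68% of all genes were. Timp1 was at 1.13 (1.10 to 1.16), 2.20-fold, and Mmp3 at 1.10 (0.99 to 1.22), 2.30-fold, while Mmp2 was at -1.14 (-1.16 to -1.12), which is 0.453 of the H3WT level. The Mmp3 call ended with the stricter cell filter (0.89) and with a pseudocount of 5 CPM (0.83). Mmp14 lay just outside the threshold with a ratio of 0.500 (0.494 to 0.507), and passed it with the stricter cell filter (-1.02). Timp2 was at -0.83, Timp3 at -0.44, Mmp19 at -0.27 and Mmp13 at 0.65, which passed 2-fold in thinned cells (1.08). Muscle and mitosis markers were also higher in this library; without cells gated on muscle, adipocyte or mitosis markers the ratios were -1.05 for Mmp2, -0.91 for Mmp14, -0.79 for Timp2, 1.08 for Timp1 and 1.20 for Mmp3. Fewer cells of a kind and less RNA per cell cannot be told apart in a summed level. What part these cells have in the rest was not tested.

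**Figure D2:**
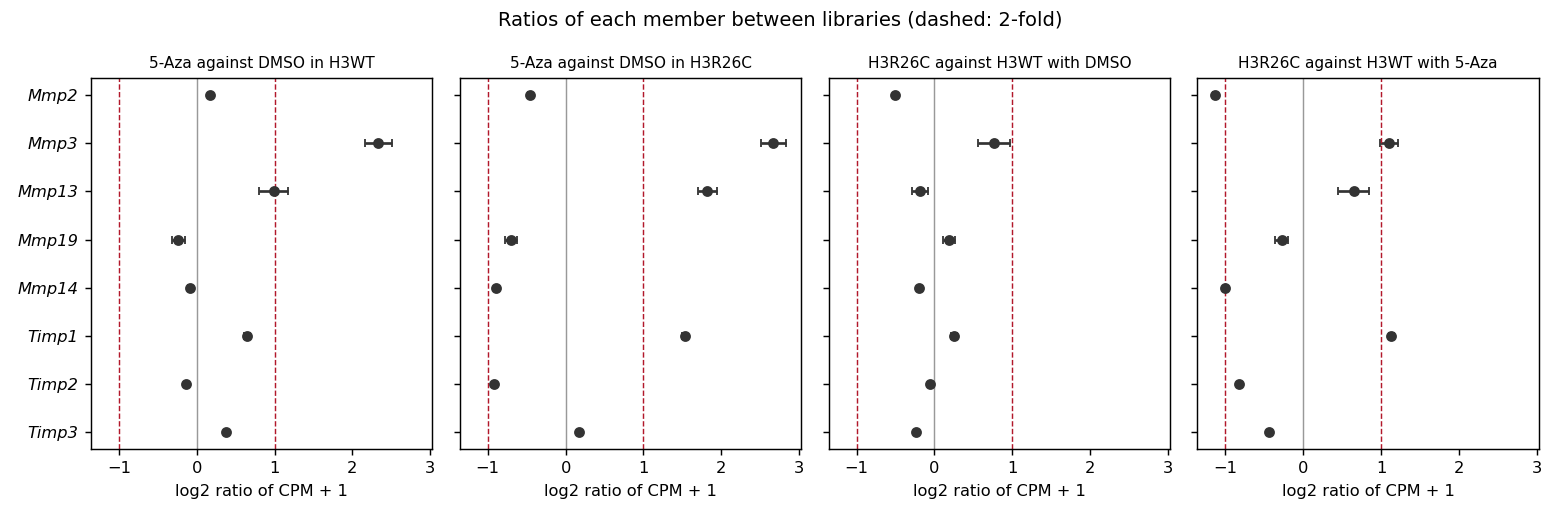
Log2 ratio of CPM + 1 for each detected member in the 4 comparisons of libraries (1 library a side); error bars are 95% counting intervals and dashed lines mark 2-fold. Mmp3 passed 2-fold in both 5-Aza panels (2.33 and 2.67), and in the last panel Mmp2 (-1.14) and Timp1 (1.13) lay on opposite sides.

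The difference between the 5-Aza response in H3R26C and that in H3WT was taken per member as the difference of the log2 ratios. By this measure 0 of 8 members reached 2-fold, where 2.44% of all genes were higher and 1.82% lower. Timp1 (0.88) and Mmp13 (0.83) leaned higher in H3R26C, and Mmp14 (-0.80), Timp2 (-0.78), Mmp2 (-0.63) and Mmp19 (-0.46) lower; Mmp3 (0.34) and Timp3 (-0.19) were nearer 0, and the direction of Mmp3 turned with a pseudocount of 0.1 CPM (-0.12). The median over members was -0.33 against -0.09 over all genes. Mmp13 passed 2-fold without the gated cells (1.03), with the mean of per-cell CPM (1.18), in thinned cells (1.29) and with a pseudocount of 0.1 CPM (2.11).

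The members fell into widely shared and rare transcripts. Mmp3 and Mmp13 were concentrated in few cells, with the 1% of cells richest in Mmp3 holding all of its UMIs in both DMSO libraries, 97.0% in H3WT 5-Aza and 86.9% in H3R26C 5-Aza. A single H3R26C 5-Aza cell held 203 Mmp3 UMIs, 10.5% of that library's total. For Mmp2, Mmp14, Timp2 and Timp3 the 1% of cells richest in each gene held 3.13 to 6.54% of its UMIs. Timp1 lay between, at 14.9% in H3WT DMSO, 11.7% in H3R26C DMSO, 20.4% in H3WT 5-Aza and 9.53% in H3R26C 5-Aza, so it was spread most evenly where its level was highest.

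**Figure D3:**
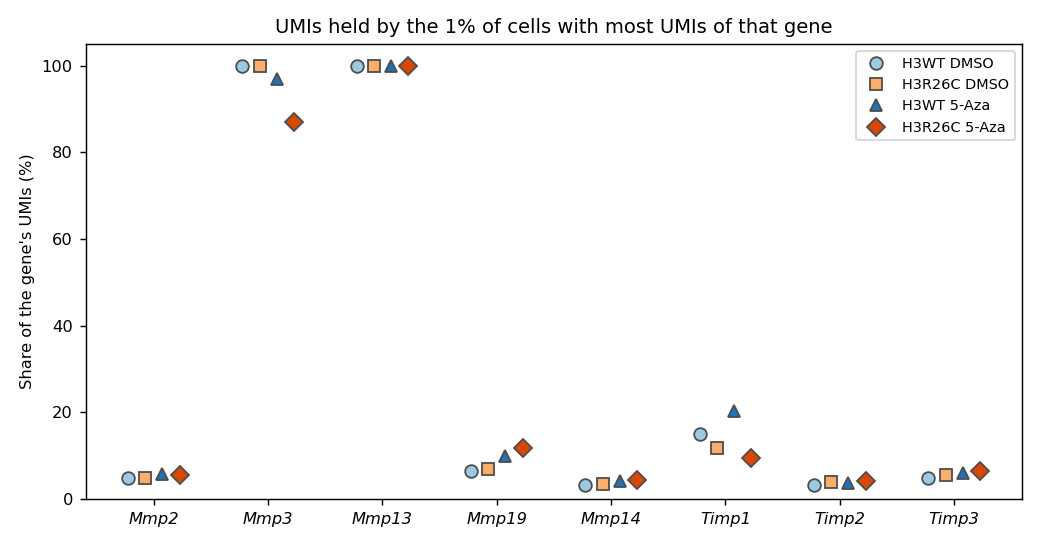
Share of each gene's UMIs (percent, linear axis) held by the 1% of cells with most UMIs of that gene, 1 point for each library. Mmp3 and Mmp13 lie at 86.9 to 100% because few cells carried any UMI, and the widely found members lie at the bottom.

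Cells with a thinned Mmp3 UMI, a set chosen after the values were seen and given as a description, numbered 10 in H3WT DMSO, 16 in H3R26C DMSO, 52 in H3WT 5-Aza and 163 in H3R26C 5-Aza. Its chromosome 9 neighbour Mmp13 had the highest fold among the genes ranked in these cells in both 5-Aza libraries. It was at 52.9 against 0.837 CPM in the other H3WT cells and 66.3 against 1.28 CPM in the other H3R26C cells. The top-ranked genes all held at least 52.9 CPM (H3WT) or 53.2 CPM (H3R26C) in the Mmp3 cells, so scarcer genes may not have been ranked. Mmp13 and the genes with high folds named below lay under these levels in the other cells. They may thus have been ranked only through their level in the Mmp3 cells, and the rank of Mmp13 is a description only. Cells with UMIs of both Mmp3 and Mmp13 numbered only 5 in H3WT and 18 in H3R26C. In the treated libraries the Mmp3 cells had a median of 13214 against 13148 UMIs in H3WT and 12267 against 13136 in H3R26C, with median mitochondrial shares of 2.89 against 2.87% and 2.87 against 2.55%. The 10 H3WT DMSO cells stood further off, at 19554 against 22428 UMIs and 5.24 against 3.86%.

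Other genes with high folds in these cells were ranked within each library, and the lists were not compared between lines. After Mmp13 the highest folds of the H3WT 5-Aza ranking were those of Pi15 (100.1 against 20.3 CPM), Hsd11b1, a glucocorticoid-activating enzyme (103 against 22.1), and Trf, transferrin (73.7 against 16.6). In H3R26C 5-Aza they were Fbln1, a matrix glycoprotein (119 against 14.0 CPM), Gpx3, a secreted glutathione peroxidase (76.8 against 11.1), and Sfrp1, a Wnt antagonist (148 against 24.5). Myog, the muscle regulator, was low in both sets, at 2.78 against 63.2 CPM in H3WT and 9.09 against 99.1 CPM in H3R26C. Muscle-gated cells were 2.19% and 2.45% of these libraries, so few would fall in sets of this size, and whether Myog was low beyond that was not tested. Mmp2 was at 1357 against 981 CPM in H3WT and 662 against 442 CPM in H3R26C, whereas Timp1 was within 0.09 on the log2 scale of the other cells in both lines.

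The relation to Spp1 was then read cell by cell. Spp1 encodes osteopontin, a secreted matrix phosphoprotein that MMP3 is known to cleave, and it stood at 275 CPM in H3WT DMSO, 476 in H3R26C DMSO, 847 in H3WT 5-Aza and 4905 in H3R26C 5-Aza. This is the order of Timp1 and Mmp3 over the libraries. Within each library, cells were placed by their thinned Spp1 UMIs into bins of 0, 1 to 4, 5 to 19 and 20 or more; a bin under 50 cells was left out, which removed the top bin of H3WT DMSO (22 cells).

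Timp1 was higher the more Spp1 a cell held, in every library. In H3WT DMSO it was 68.3 CPM in cells with 0 Spp1 UMIs, 124 with 1 to 4 and 211 with 5 to 19. In H3R26C DMSO it was 74.8, 151, 234 and 256 CPM over the 4 bins. In H3WT 5-Aza it was 94.8, 129, 223 and 482 CPM, and in H3R26C 5-Aza 187, 227, 313 and 418 CPM. The order of bins was the same in all 4 libraries, while the starting level was highest in H3R26C 5-Aza. Spearman's rho between Timp1 and Spp1 UMIs of thinned cells was 0.21, 0.27, 0.20 and 0.23 over 3710, 4727, 5993 and 7619 cells that share a library, and Spp1 was also the gene most like Timp1 among 9668 candidates by the mean over libraries (in H3R26C 5-Aza, Lgals3 and Lgals1 at 0.26 stood above Spp1 at 0.23).

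Between cells with 0 and with 5 to 19 Spp1 UMIs, Mmp14 and Timp2 were lower in the latter in all 4 libraries and Mmp2 in 3 of them. In H3R26C DMSO, cells with 0 and with 5 to 19 Spp1 UMIs held 711 and 304 CPM of Mmp2, 699 and 400.4 CPM of Mmp14 and 3415 and 2261 CPM of Timp2. In H3R26C 5-Aza the same bins held 602 and 433 CPM of Mmp2, 429 and 321 of Mmp14 and 2199 and 1560 of Timp2. In H3WT DMSO they held 921 and 648 CPM of Mmp2 (-0.51, against -0.48 in H3R26C 5-Aza), 732 and 609 of Mmp14 (-0.26) and 3275 and 3026 of Timp2 (-0.11). H3WT 5-Aza was the exception for Mmp2, at 947 and 1011 CPM, although Timp2 was at 3109 and 2664. The rho of Mmp2 with Spp1 was -0.11 in H3WT DMSO, -0.27 in H3R26C DMSO, 0.02 in H3WT 5-Aza and -0.18 in H3R26C 5-Aza. In the same order rho was -0.02, -0.22, -0.06 and -0.13 for Mmp14 and 0.02, -0.23, -0.13 and -0.18 for Timp2. In H3WT DMSO neither gene fell steadily, as cells with 1 to 4 Spp1 UMIs held 736 CPM of Mmp14 and 3367 of Timp2. Timp3 had rho values between -0.06 and 0.03.

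By the 2-fold rule between cells with 5 to 19 and 0 Spp1 UMIs, Timp1 was the member called higher in H3WT DMSO (1.61, where 4.49% of all genes were higher and 2.00% lower), in H3R26C DMSO (1.63, where 5.22% were higher and 4.86% lower) and in H3WT 5-Aza (1.23, where 1.63% were higher and 1.31% lower). In H3R26C 5-Aza, where 2.55% of genes were higher and 2.03% lower, Timp1 was short of it at 0.74. Members called lower were Mmp2 (-1.22) and Mmp3 in H3R26C DMSO and Mmp3 (-1.49) in H3R26C 5-Aza. The H3R26C DMSO value of Mmp3 rests on 0 UMIs in the 5 to 19 bin (495 cells) against 2.28 CPM in cells with 0 Spp1 UMIs, of which 0.413% carried an Mmp3 UMI; with so few carriers no bound on the fold is given.

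Mmp3 levels over the Spp1 bins ran in opposite directions in the treated lines, though few cells carried them. In H3R26C 5-Aza it was 48.7 CPM in cells with 0 Spp1 UMIs, 27.9 with 1 to 4, 16.7 with 5 to 19 and 6.38 with 20 or more. In H3WT 5-Aza it was 4.86, 9.44, 9.70 and 13.6 CPM over the same bins. Among cells with 20 or more Spp1 UMIs, the Mmp3 ratio of H3R26C to H3WT was -0.99, where the H3WT value rests on 52 UMIs in 2.15% of 233 cells. Among cells with none it was 3.08. Mmp3 cells made up at most 3.34% of any bin, UMIs of 1 cell are not independent, and the rho of Mmp3 with Spp1 was 0.06 in H3WT 5-Aza and -0.06 in H3R26C 5-Aza.

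Cells of the treated lines were also compared within the Spp1 bins, which do not make Spp1 equal between the lines. Over the 4 bins Spp1 itself was 98.0, 495, 2310 and 10034 CPM in H3R26C 5-Aza. In H3WT 5-Aza it was 33.2, 427, 1854 and 7003 CPM, lower in each bin. Timp1 in H3R26C against H3WT 5-Aza was 0.97 in cells with 0 Spp1 UMIs, 0.81 with 1 to 4, 0.49 with 5 to 19 and -0.20 with 20 or more, so its difference between lines was smaller within bins than the 1.13 over all cells and changed sign in the top bin. Mmp2 was -0.65, -0.86, -1.22 and -1.29 over the bins, and Mmp14 -0.70, -0.76, -0.98 and -0.89. Timp2 was -0.50, -0.64, -0.77 and -0.65. For these 3 genes H3R26C stayed below H3WT in every bin. The bins held 718, 1503, 2398 and 3000 H3R26C cells and 2943, 1659, 1158 and 233 H3WT cells. With DMSO, Mmp2 in H3R26C against H3WT was -0.37, -0.68 and -1.09 in the bins of 0, 1 to 4 and 5 to 19. It thus passed 2-fold in the last bin, though not over all cells (-0.51). Timp1 with 5-Aza against DMSO in H3WT was 0.47, 0.06 and 0.08 in the same bins, against 0.65 over all cells. In H3R26C it was 1.31, 0.58, 0.42 and 0.71 over the 4 bins, against 1.53.

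**Figure D4:**
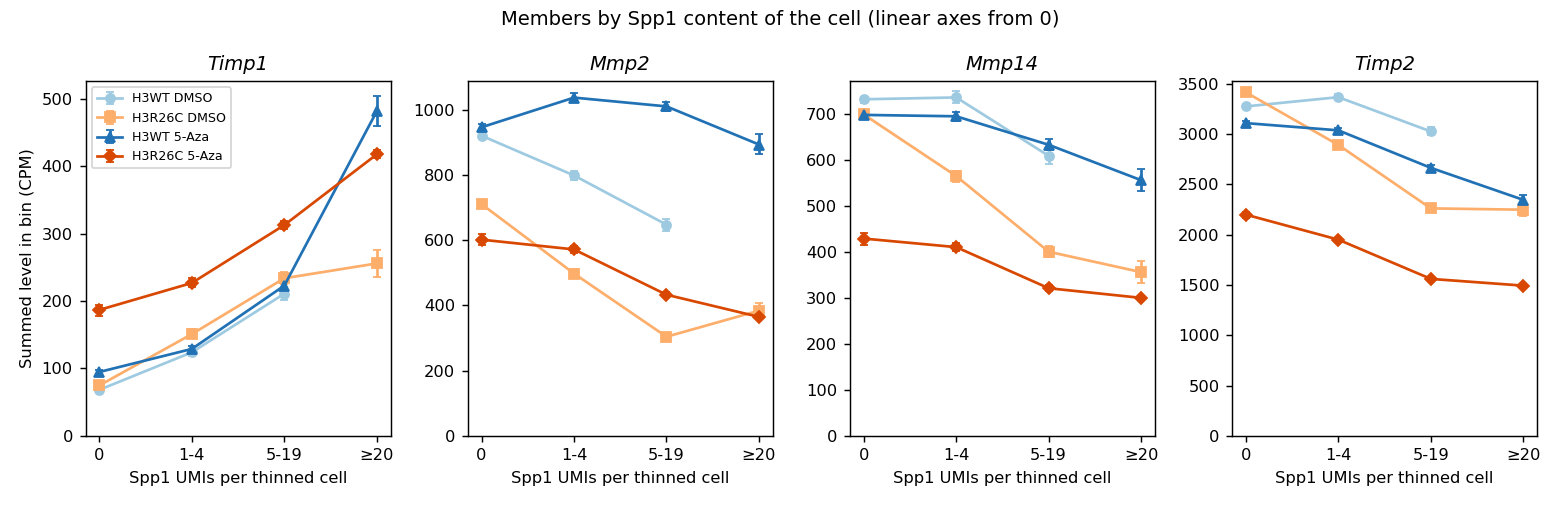
Summed level (CPM, linear axes from 0) of Timp1, Mmp2, Mmp14 and Timp2 in cells binned by thinned Spp1 UMIs, 1 line for each library with 95% exact Poisson intervals. Timp1 climbs in every library, from 68.3 to 187 CPM in the lowest bin, and Mmp14 and Timp2 of H3R26C 5-Aza lie below the other libraries in each bin.

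Levels also differed between kinds of cells within a library. Cells were gated on marker UMIs after thinning: muscle (at least 8 of 12 sarcomere genes), adipocyte (at least 4 of 8 genes), mitosis (at least 4 of 8 genes) and Enpp2 (at least 5 UMIs of the autotaxin gene). The muscle gate held 0 cells in either DMSO library, 131 in H3WT 5-Aza and 187 in H3R26C 5-Aza, and the adipocyte gate held at most 33 in any library, too few to give levels.

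Muscle-gated cells held little Mmp2, Mmp14 and Timp3. In H3WT 5-Aza they had 241 against 1041 CPM of Mmp2 in cells outside all gates, 179 against 715 of Mmp14 and 601 against 2089 of Timp3. In H3R26C 5-Aza the values were 96.9 against 517 CPM of Mmp2, 67.0 against 381 of Mmp14 and 204 against 1655 of Timp3. In all, 7 of 8 members in H3WT and 6 of 8 in H3R26C were at least 2-fold lower, where 18.9% and 20.2% of all genes were; Timp2 made the difference (-1.20 in H3WT and -0.67 in H3R26C). Both counts include Mmp3 and Mmp13, which the muscle gates were too small to call lower. In H3WT, Mmp13 was at -1.18 (-2.57 to 0.21), with a floor of 1.46 CPM above the 1.27 CPM of ungated cells. Mmp3 was in 0.820% (H3WT) and 2.41% (H3R26C) of ungated cells, within the muscle-gate limits of 2.78% and 2.94%. Without these genes the lower members were Mmp2, Mmp14, Mmp19 and Timp3 in both lines and Timp2 in H3WT. Muscle-gated cells held 4 Mmp3 UMIs in H3R26C 5-Aza and otherwise 0 UMIs of either gene. After thinning, 1 of these H3R26C cells carried an Mmp3 UMI. Timp1 was the exception, at 116 against 148 CPM in H3WT and 292 against 319.9 CPM in H3R26C. The median depth of muscle-gated cells was 13630 UMIs in H3WT and 17953 in H3R26C, against 12929 and 12658 outside the gates. As shares of thinned cells, Mmp2 was found in 40.5% and 28.9% of muscle-gated cells and in 94.9% and 80.5% of ungated ones; muscle cells are not known to lack these genes, so the lower share is an upper limit on what free RNA gives. Mmp13 had 0 UMIs in both muscle gates; outside the gates 0.764% of H3R26C 5-Aza cells carried it, within the 95% exact binomial interval for 0 of 187 cells, which reaches 1.95%, so a difference was not detectable.

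Mitosis-gated cells numbered 120, 320, 331 and 962 in H3WT DMSO, H3R26C DMSO, H3WT 5-Aza and H3R26C 5-Aza. Timp1 was higher in them than in ungated cells of each library, at 218 against 89.0, 240.0 against 98.6, 213 against 148 and 421 against 319.9 CPM. Mmp2 was lower in each, at 351 against 901, 239 against 663, 462 against 1041 and 235 against 517 CPM. The direction was thus shared by all 4 libraries for both genes, and the Timp1 gap was smaller after 5-Aza. Spp1 was higher too in mitosis-gated cells of 3 libraries, at 731 against 249.9, 1316 against 379.5 and 1318 against 808 CPM, but not in H3R26C 5-Aza (4857 against 4975).

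Enpp2-gated cells numbered 138, 143 and 589 in H3R26C DMSO, H3WT 5-Aza and H3R26C 5-Aza. Mmp3 was 49.6 against 7.30 CPM outside the gates in H3WT 5-Aza and 2.02 against 22.4 CPM in H3R26C 5-Aza. These levels were carried by few cells, with an Mmp3 UMI in 4.2% of the gated cells (101 UMIs in all) in H3WT 5-Aza and 1.36% (15 UMIs) in H3R26C 5-Aza. Mmp2 had the same direction at smaller size, at 1499 against 1041 CPM and 412 against 517 CPM. Timp1 was lower in them in both treated libraries, at 68.7 against 148 and 205 against 319.9 CPM. In H3R26C DMSO, gated and ungated cells were close for Timp1 (91.4 against 98.6 CPM) and Mmp2 (615 against 663 CPM). The gated cells of that library held 1 Mmp3 UMI.

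**Figure D5:**
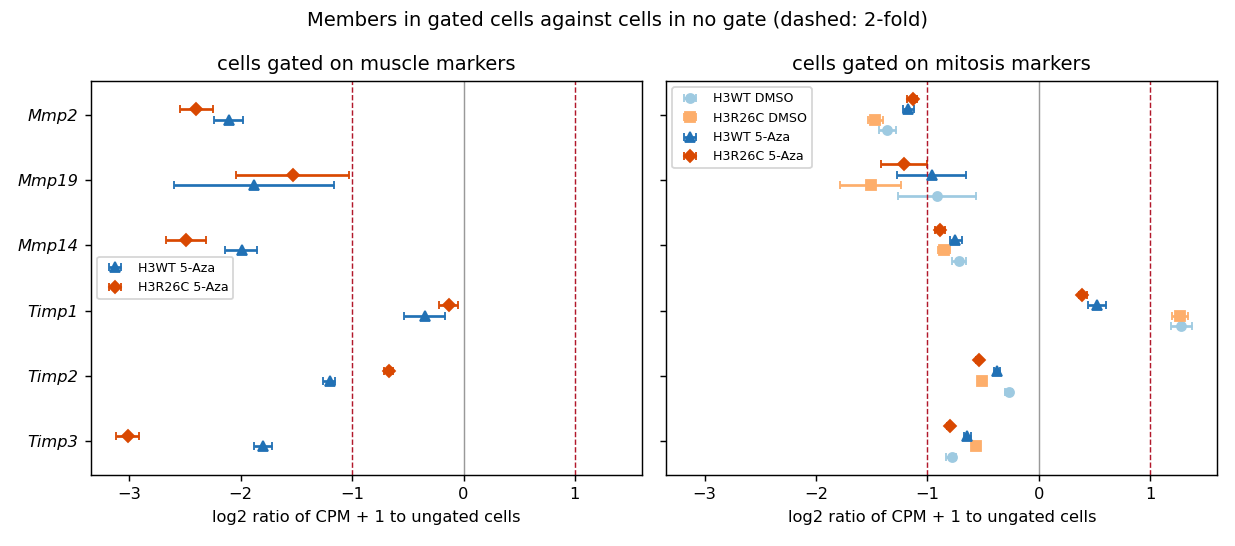
Log2 ratio of CPM + 1 in cells gated on muscle (left) or mitosis markers (right) to cells in no gate, by library, with 95% counting intervals; dashed lines mark 2-fold and Mmp3 and Mmp13 are left out as too sparse. Mmp2 lies left of the 2-fold line in every library of both panels, and Timp1 lies near 0 in muscle-gated cells and to the right in mitosis-gated ones.

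To see which genes varied most like each member, Pearson's r of log-transformed thinned UMIs was averaged over the 4 libraries for 9668 candidate genes found in at least 2% of cells everywhere, and up to 3 genes with a mean of at least 0.2 were named. Mmp2 was most like Rnase4 (0.38), the fibrillar collagen gene Col3a1 (0.37) and Fstl1, a secreted glycoprotein (0.36). Fstl1 also led for Mmp14 (0.31) and Timp2 (0.38), followed by Col3a1 (0.26) and Timp2 (0.24) for Mmp14 and by Clec3b (0.37) and Ptn (0.34) for Timp2. Timp3 was most like Fn1, fibronectin (0.32), Osr1 (0.31) and Timp2 (0.26). Timp1 had other neighbours, Spp1 (0.26) and the galectin genes Lgals3 and Lgals1 (both 0.21). Mmp3 and Mmp19 had none at 0.2, and Mmp13 was too sparse to compute in all libraries.

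Other genes of the pathway were taken from lists of 71 genes, of which 52 passed the same expression minimum. Called higher and lower, they numbered 1 and 2 for 5-Aza in H3WT, 10 and 6 for 5-Aza in H3R26C, 5 and 4 for H3R26C against H3WT with DMSO and 10 and 8 with 5-Aza, next to the shares of all genes given above. Among the other proteases and inhibitors, H3R26C was higher than H3WT after 5-Aza in Mmp28 (7.64 against 1.67 CPM) and Mmp9, gelatinase B (3.9 against 0.996 CPM), and lower in Mmp11 (41.1 against 91.5 CPM) and Timp4 (0.795 against 4.48 CPM). Mmp9 was nonetheless highest in H3R26C DMSO (17.6 CPM) and was called lower with 5-Aza in both lines. Plaur, the receptor that holds the plasmin-generating protease urokinase on cells, was higher as well (30.5 against 11 CPM), and so was Cd44, a hyaluronan and osteopontin receptor that docks MMPs (57.4 against 25.7 CPM). Pcsk6, from the same list as Cd44, was called lower (3.68 against 9.38 CPM), and Adam8 was called higher (10.4 against 3.12 CPM). With DMSO, H3R26C was also called higher than H3WT in Mmp9 (17.6 against 3.83 CPM) and lower in Timp4 (1.24 against 3.78 CPM). Short of 2-fold, the directions with DMSO were also the same for Mmp28 (0.89), Mmp11 (-0.60), Plaur (0.38), Cd44 (0.61), Pcsk6 (-0.17) and Adam8 (0.22).

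Of factors known to act on MMP promoters, the AP-1 genes split. Fosl1 was 59.8 CPM in H3R26C 5-Aza against 12 in H3WT 5-Aza, and Etv4, an Ets factor, 9.97 against 0.901. Fos (44.7 against 494 CPM), Fosb (1.82 against 25.8), Junb (216 against 642) and Jund (501 against 1189) were lower. With DMSO the directions were the same. H3R26C was called higher in Fosl1 (21.5 against 7.24 CPM) and Etv4 (2.33 against 0.472). It was called lower in Fos (438 against 921 CPM) and Fosb (41.3 against 110), while Junb (-0.67) and Jund (-0.88) were short of 2-fold. Il33, a cytokine of the interleukin-1 family, was 9.42 CPM in H3WT DMSO, 10.1 in H3R26C DMSO, 79.6 in H3WT 5-Aza and 263 in H3R26C 5-Aza, the same order as Mmp3 except that the DMSO libraries lay close together. Hbegf, from the same list and also called higher in H3R26C after 5-Aza, had another order, at 17.2, 8.64, 10.6 and 24.6 CPM. The other membrane MMPs had 0 of 2 tested members called in any of the 4 comparisons.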

How the data were processed

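Libraries were 10x Genomics droplet libraries, 1 for each of the 4 conditions. The authors deposited raw UMI counts per gene and barcode, made with Cell Ranger 6 against mm10 (submitters' processing notes; the file header gives 6.1.0), and the notes also name Seurat 4. All deposited columns were mapped to a sample (0 unmapped). From these counts, barcodes were kept by the UMI, gene and mt- limits given in the report. Doublets were not removed and the cells were not reclustered. Levels are summed UMIs as CPM with 95% exact Poisson intervals, and shares use cells thinned to 5000 UMIs with exact binomial intervals. Ratios are log2(CPM + 1), for genes whose mean over the libraries reached 1 CPM, and a difference is called at 2-fold. With 1 library per condition no test was made. A count of 0 was given a floor of 3 counts. Genes other than the members were named from lists, when called at 2-fold (at most 4 a list and direction), or by mean correlation. Others were named by rank in cells with Mmp3 UMIs, which were examined after the values were seen. The members and lists were chosen with earlier results of these data known. Promoters were RefSeq, GRCm38.p6. The alternatives were other pseudocounts, scalings, cell filters, thinning, the unthinned share, another muscle gate and leaving out gated cells. The scripts were tested on simulated data and run with Python 3.11.15, numpy 2.4.6, scipy 1.17.1, pandas 2.3.3 and matplotlib 3.10.9.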

Additional observations from a re-analysis of the deposited data

Results flagged for a closer look

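Over all kept cells, Mmp2 differed in the direction of its 5-Aza ratio between the lines. It was 984 CPM with 5-Aza and 874 CPM with DMSO in H3WT (0.17 on the log2 scale), and 446 CPM with 5-Aza and 614 CPM with DMSO in H3R26C (-0.46), which puts the response in H3R26C at -0.63 relative to that in H3WT. Within the Spp1 bins of 0, 1 to 4 and 5 to 19 UMIs, the ratio was 0.04, 0.38 and 0.64 in H3WT. In H3R26C it was -0.24, 0.20 and 0.51, so among these bins the directions differed only in the 0 bin. With 20 or more it was -0.07 in H3R26C, and the H3WT DMSO bin was left out. The bins do not make Spp1 equal between libraries. Each side is 1 library, so the difference was not tested.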

How the results depend on the processing

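Of 360 recomputed log2 ratios (40 ratios under 9 alternatives), 209 moved by less than their counting error, 151 moved further and 0 called ratios changed sign; 1 ratio short of 2-fold did, the Mmp3 difference of responses (0.34, and -0.12 with a pseudocount of 0.1 CPM). For H3R26C against H3WT with 5-Aza, Mmp13 passed 2-fold in thinned cells (1.08), which took the count from 3 to 4. The counts of members past 2-fold that moved most turned on Mmp13 and Mmp3, the scarce members. For 5-Aza in H3WT the count went from 1 to 2 with a pseudocount of 0.1 CPM, with scaling without mt-, Rpl and Rps genes, with the looser cell filter and without gated cells, where Mmp13 was at 2.47, 1.10, 1.06 and 1.04. For H3R26C against H3WT with DMSO it went from 0 to 2 with a pseudocount of 0.1 CPM (Mmp3 1.31 and Mmp13 -1.16). For the difference of responses it went from 0 to 1 with a pseudocount of 0.1 CPM, the mean of per-cell CPM, without gated cells and in thinned cells, by Mmp13 (2.11, 1.18, 1.03 and 1.29). A smaller pseudocount enlarges ratios of scarce genes by construction; the cause of the other moves was not tested. The median over all genes lay between -0.10 and 0.05 in every setting. Of 128 recomputed correlations with Spp1, 120 moved little, 8 moved further and 0 of those at 0.1 or more in size changed sign. No paired analysis was possible because the labels give 1 library for every group, and no result comes from a test. Differences between lines or treatments cannot be told apart from differences between single libraries, and at 1 to 13 UMIs in DMSO the level of Mmp13 was set by a few cells.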

Other observations

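Members also varied together from cell to cell within a library, given here as Spearman's rho over thinned cells that share a library. Mmp14 with Mmp2 was at 0.12 in H3WT DMSO, 0.23 in H3R26C DMSO, 0.23 in H3WT 5-Aza and 0.29 in H3R26C 5-Aza, and Timp2 with Timp3 lay between 0.19 and 0.21 in all 4 libraries. Timp1 with Mmp2 was negative in each library, at -0.09 in H3WT DMSO, -0.15 in H3R26C DMSO, -0.05 in H3WT 5-Aza and -0.13 in H3R26C 5-Aza. The proteases outside the member list also included a pair of ADAMTS enzymes that moved in opposite directions in H3R26C against H3WT after 5-Aza, Adamts2, a procollagen peptidase (74.7 against 29.5 CPM), and Adamts5, an aggrecanase (136 against 326 CPM).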
